A study of Mus musculus with 4 samples.

Results

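Aqp1 Fxyd2 synovial macrophages are cells of the mouse ankle joint lining tissue that carry RNA of the water channel gene Aqp1 and of Fxyd2, which encodes a regulatory subunit of the sodium pump. They were picked by their own RNA counts. Barcodes were kept where they showed 300 genes or more and no more than 10% of mitochondrial counts. A kept barcode was a member if it had at least 5 Fxyd2 molecules, at least 1 Aqp1 molecule and at most 1 Vsig4 molecule, with under 0.4% of its molecules from the osteoclast genes Acp5 and Ctsk. The rule found 1574 cells among 14451 kept barcodes, from 15501 barcodes in all.

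Bone marrow chimeras were used, in which CD45.2 B6 mice had received marrow of CD45.1 B6 mice while the ankle was shielded from irradiation. Baseline mice had no treatment and were taken on day 0. Peak, plateau and resolution mice had been given serum of K/BxN mice by the retro-orbital route, which sets off arthritis, and were taken on day 7, day 14 and day 56. From the synovium, live CD45+ CD11b+ cells were sorted that lacked CD177, Ly6C, CD64, Ly6G, SiglecF and MHC class II. RNA and surface antibodies were counted in the same cells by CITE-seq, which reads a DNA tag on each antibody beside the RNA. Each stage had 1 library, the labels do not say how many mice stand behind a library, and so no test between stages was possible. The titles of the 3 arthritis samples also carry the tag Clo-lip, which no other label explains, and its part cannot be told apart from the stage.

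Synovial macrophages include cells that form a barrier at the joint cavity and cells that lie deeper, around vessels, and both clear debris and dying cells. Resident macrophages of many tissues are seeded before birth or soon after and renew themselves, while others come from blood monocytes. In these chimeras the CD45 variant on a cell tells donor marrow descent, CD45.1, from recipient descent, CD45.2. Aqp1 passes water across membranes, Alox5 starts leukotriene synthesis, Pf4 is a chemokine of platelets and of some macrophages, C1qa encodes a chain of complement C1q, and Gpr34 is a receptor for a lysophospholipid.

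The surface readout rests on the 15-base tags of the antibodies. The tags of the antibodies that the protein results turn on are printed here in lower case, and capitals mark the 11 bases at which the tags of the 2 CD45 variants differ.
CD163: gagcaagattaagac
FrB: ctcagatgcccttta
MERTK: agtagagcaactcgt
CD204_Msr1: agctagacacgttgt
CD45.2: cACCGTCaTtCAACc
CD45.1: cCTATGGaCtTGGAc
CD11a: agagtctccctttag
Ly6C: aagtcgtgaggcatg
Any 2 of the 92 tags in the panel differ in at least 4 bases. FrB names the antibody to folate receptor beta, the product of Folr2, and CD204 is the scavenger receptor of Msr1.

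The macrophages were common at the ends of the course and rare in the middle. They were 88 of 1071 kept barcodes at baseline (8.22%, 95% interval 6.64 to 10.0), 32 of 5941 at peak (0.539%, 0.369 to 0.760), 49 of 2828 at plateau (1.73%, 1.28 to 2.28) and 1405 of 4611 at resolution (30.5%, 29.1 to 31.8). The share was highest at resolution and lowest at peak, and none of the 4 exact binomial (Clopper-Pearson) intervals overlap. These intervals, and all others given, cover counting error alone and not differences between mice or libraries. A share of a sort moves with the number of other sorted cells, and the other kept barcodes numbered 983, 5909, 2779 and 3206 from baseline to resolution. When every cell was thinned to 2000 molecules, the share was 7.29%, 0.346%, 1.33% and 26.9% from baseline to resolution. Without the Vsig4 limit it was 13.7% at baseline and 34.0% at resolution.

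**Figure D1:**
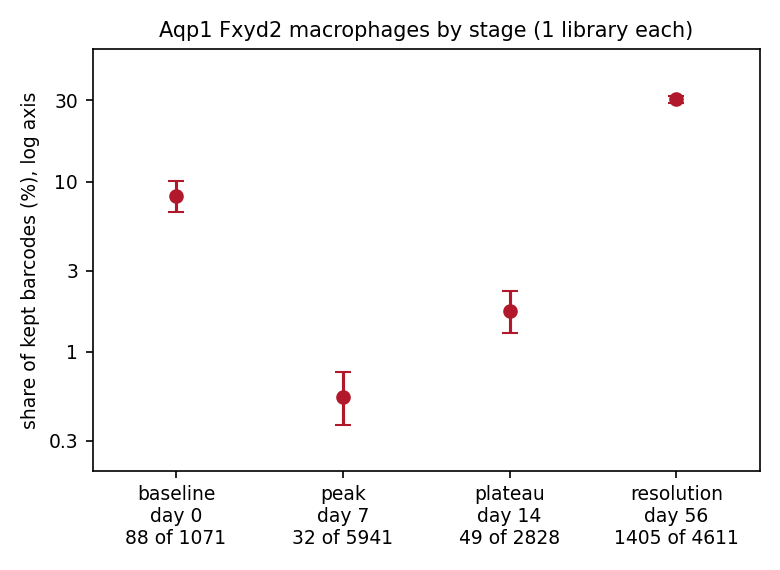
Share of kept barcodes (%, log axis) that met the rule at each stage, with exact 95% binomial intervals and the counts under each stage. The share was 8.22% at baseline, 0.539% at peak, 1.73% at plateau and 30.5% at resolution.

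The macrophages were deeper than the other barcodes at every stage but peak. Median counts per cell of unique molecular identifiers (UMIs, which count molecules) were 10086.5, 7714, 7729 and 6356 in the macrophages and 7583, 8252, 6769 and 4244 in the other barcodes, from baseline to resolution. Summed over the macrophages this gave 1005762, 346707, 507837 and 10461176 gene UMIs and 108767, 34677, 60567 and 768410 antibody UMIs. The peak and plateau values therefore rest on few cells. Median mitochondrial shares lay between 1.23% and 2.08% in the macrophages and between 1.28% and 2.07% in the others. No doublet caller was run. Barcodes on which CD45.1 and CD45.2 each reached 10 UMIs, which can mark a droplet with a donor and a recipient cell, were 2 (2.27%), 4 (12.5%), 0 and 6 (0.427%) of the macrophages, where 0 of the 49 at plateau allows a share of up to 6.12%. They were 4.48%, 2.08%, 1.66% and 0.499% of the other barcodes, so the peak macrophages stood above theirs. Without such barcodes 158 genes were 2-fold higher and 310 lower at peak than at baseline, against 178 and 324 with them. Of the resolution macrophages 5 carried a barcode sequence that another library also held, and none at the other stages did.

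The genes of the rule are given as a description, since they chose the cells. The median macrophage held 49.5, 12.5, 17 and 30 Fxyd2 UMIs from baseline to resolution, up to 263 in 1 cell, and 8, 5, 6 and 5 Aqp1 UMIs. Summed and scaled to CPM, UMIs per 1000000 gene UMIs, Fxyd2 stood at 5527, 2541, 2087 and 5267 CPM in the macrophages, against 239.5, 38.5, 75.03 and 944.8 CPM in the other barcodes. Aqp1 stood at 954.5, 534, 666 and 923 CPM in the macrophages, against 54.9, 7.30, 17.9 and 204 CPM in the others. In cells that should lack both genes (lymphoid, basophil and neutrophil profiles, 86, 102, 13 and 46 cells), Fxyd2 stood at 2.13, 30.4, 31.9 and 53.9 CPM. The part of free RNA in these values was not tested. The 24 UMIs at peak lay in 1 cell, so that value does not describe the set. A Fxyd2 UMI was found in 16.3%, 5.69%, 14.3% and 37.7% of the other barcodes, and in 4.65%, 0.980%, 15.4% and 19.6% of the cells that should lack it, whose median depths were 20882.5, 4613, 2664 and 2538.5 UMIs. The share in the other barcodes was above that of these cells at baseline, peak and resolution. At plateau it was not, but only 13 such cells were found, and in CPM the others stood higher, at 75.03 against 31.9. Such shares rise with depth, and these cells were shallower than the other barcodes at every stage but baseline.

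Cells just inside and just outside the limits are given as a description. At resolution the 90 members with 5 or 6 Fxyd2 UMIs had 1429 CPM of Pf4, 1565 of C1qa and 194 of Alox5, and the 105 barcodes with 3 or 4 Fxyd2 UMIs that met the other limits had 1117, 1962 and 146 CPM. The 207 resolution barcodes that failed only for lack of an Aqp1 UMI had 899 CPM of Pf4 and 712 of C1qa. The Vsig4 limit kept out 59, 16, 15 and 165 barcodes from baseline to resolution, and these had 5361, 3740, 4119 and 4002 CPM of C1qa. The Acp5 and Ctsk limit kept out 0, 12, 8 and 28 barcodes. Those at peak and plateau had 2.33 and 49.5 CPM of C1qa beside 19663 and 19865 CPM of Ctsk, the cathepsin of osteoclasts. The 28 at resolution had 1315 CPM of C1qa, 3038 of Pf4 and 335 of Alox5 beside 6008 CPM of Ctsk, with Acp5 found in 4 of them.

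Markers are given as a description. The 6 given markers were chosen with earlier results of these data known, so they cannot check the label. Of the 6 given markers, 5 were at least 2-fold higher in the macrophages than in the other barcodes in all 4 libraries, 2 of them rule genes, and 4 were so when totals were rescaled by trimmed means (TMM). Gpr34 was the exception, with 300, 83.6, 76.8 and 170 CPM in the macrophages against 65.7, 4.56, 7.91 and 98.4 CPM in the others, 1.72-fold at resolution. Csf1r, the receptor for the macrophage growth factor, stood at 472, 427, 522 and 406 CPM in the macrophages against 339, 306, 394 and 367 CPM in the others. Of 7 lining macrophage markers Trem2 alone was higher in every library, and of 7 markers of Vsig4 Lyve1 resident macrophages none was, at median log2 ratios of -0.68 and 2.67. Vsig4 is on both lists, and its low value was set by the rule. Markers of other cell types varied. The 10 nonclassical monocyte markers summed to 267, 239, 427 and 390 CPM in the macrophages, against 1659, 426, 327 and 1345 CPM in the others, higher in the macrophages at plateau. Of these 10 markers 2 were lower in every library, Ace and Ear2, at a median log2 ratio of -2.67, and -1.98 with genes at 0 set to 3 counts. Reads of Ear2 and of other ribonuclease genes of its family can be shared between copies, so its values are uncertain. The 9 osteoclast markers, Acp5 and Ctsk of the rule among them, summed to 144, 185, 837 and 295 CPM in the macrophages, against 101, 5242, 22125 and 1308 CPM in the others, higher in the macrophages at baseline. The 7 endothelial markers summed to between 2.88 and 14.9 CPM in the macrophages. The 8 neutrophil markers summed to 97.4, 49.0, 11.8 and 9.85 CPM in the macrophages, against 43356, 1056, 313 and 2649 CPM in the others. The lymphoid, erythroid and basophil lists each summed to under 3 CPM in the macrophages at every stage, and Cd3e, Nkg7 and Mcpt8 were at 0. The 6 platelet markers gave 1, 0, 2 and 31 UMIs in the macrophages, so the platelet genes other than Pf4 were at or near 0. Fibroblast markers summed to 6.96, 640, 51.2 and 144 CPM in the macrophages, against 1706, 3005, 5338 and 3758 CPM in the others. The peak value came largely from 1 cell, which held 144 of 148 UMIs of the collagen-binding proteoglycan gene Dcn.

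RNA of the macrophages was then set beside that of all other kept barcodes of the same library. Of 10066 genes with at least 30 UMIs in every library, 121 (1.20%) were at least 2-fold higher in the macrophages in all 4 libraries and 292 (2.90%) at least 2-fold lower. These are sizes and not tests, because the cells were picked by RNA. Within single libraries 17.6%, 25.9%, 12.4% and 3.22% of the genes measured were 2-fold higher and 14.7%, 10.1%, 14.7% and 11.9% lower, from baseline to resolution. The 30 UMIs were asked of both sums together, and ratios carry a small added count. At peak the macrophage sum was so small that a gene with no UMI in the macrophages could score as 2-fold higher. The 25.9% at peak may therefore include genes barely or not found in the macrophages. The median log2 ratio of all 10066 genes was 0.15 on total counts and -0.04 with trimmed-mean (TMM) totals, so values near that shift carry no direction. Fewer genes, 80, were 2-fold higher in every library on TMM totals.

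Beside the rule genes, the 10 highest genes by the naming rule were Mamdc2, Pf4, Jam2, Alox5, Pmp22, Ephx1, Tppp3, Cspg4, Slc7a2 and Dpysl3. None of the 10 was 2-fold higher in every library than in the Vsig4-positive cells described below. Mamdc2, Jam2, Alox5, Pmp22 and Cspg4 were under 2-fold apart from those cells in every library. Pf4 had 4651, 669, 2113 and 1947 CPM in the macrophages, against 276.5, 49.6, 128 and 508.5 CPM in the others. The macrophage value was the higher in each library, 16.8-, 13.5-, 16.5- and 3.83-fold. Alox5, the 5-lipoxygenase gene, had 298, 182, 157.5 and 277 CPM in the macrophages against 34.9, 5.12, 10.8 and 80.8 CPM in the others. That made it 8.55-, 35.7-, 14.6- and 3.43-fold higher, the smallest ratio again at resolution, where the other barcodes held most Fxyd2. Jam2, a junctional adhesion molecule, had 54.7, 54.8, 63.0 and 59.6 CPM in the macrophages and 4.02, 1.97, 3.92 and 18.6 CPM in the others. Its level in the macrophages stayed between 54.7 and 63.0 CPM over the 4 stages. Cspg4, a membrane proteoglycan best known from pericytes, had 105, 138, 157.5 and 138 CPM in the macrophages and 12.3, 7.81, 19.2 and 44.7 CPM in the others. Slc7a2, a carrier of arginine and other cationic amino acids, had 340, 262.5, 138 and 394 CPM in the macrophages and 28.4, 8.60, 25.6 and 143 CPM in the others. Mamdc2 had 91.5, 54.8, 67.0 and 102 CPM in the macrophages, against 6.12, 1.15, 4.09 and 31.1 CPM in the others. Pmp22, a membrane protein of the myelin sheath, was 7.05-, 14.1-, 12.2- and 2.36-fold higher in the macrophages, and Tppp3, which binds tubulin, 7.44-, 11.2-, 12.4- and 2.64-fold.

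**Figure D2:**
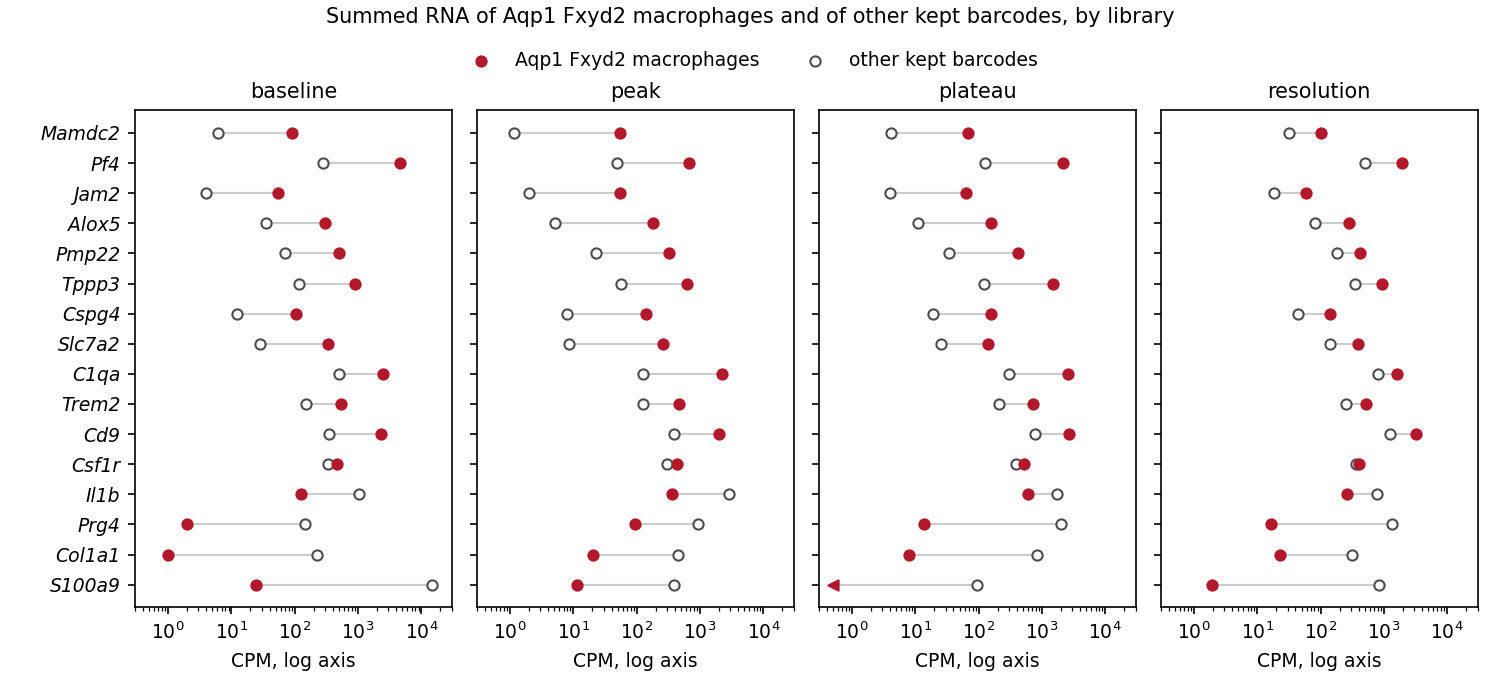
CPM (log axis) of summed RNA in Aqp1 Fxyd2 macrophages (filled) and in the other kept barcodes (open) for 16 genes in each library. A triangle marks a gene with 0 UMIs in the macrophages. Pf4, Alox5 and Jam2 lie higher in the macrophages in all 4 libraries, Csf1r differs by under 2-fold, and Prg4, Col1a1 and S100a9 lie lower.

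Among complement genes, C1qa had 2505, 2250, 2605 and 1635 CPM in the macrophages, against 493, 125, 299 and 812 CPM in the others. The ratios were 5.08 (4.84 to 5.33 at baseline), 18.1, 8.72 and 2.01, so that C1qa passed the 2-fold line narrowly at resolution and missed it there on TMM totals. C1qb, another C1q chain, was 5.48-, 10.9-, 6.604- and 2.14-fold higher, and C3ar1, the receptor for complement C3a, 6.39-, 3.48-, 2.27- and 2.26-fold. In all 3 of 18 measured complement genes were higher in every library and 2 lower, Cfb and Serping1, or 2 and 3 on TMM totals, at a median log2 ratio of 0.18, or -0.07 on TMM totals. Vsig4, limited by the rule, was among the 18.

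Genes for taking up dying cells and lipid were represented by Cd36 and Trem2. Cd36, a fatty acid and scavenger receptor, had 715, 427, 553 and 526 CPM in the macrophages, against 103, 37.1, 93.7 and 222 CPM in the others. Trem2, a lipid receptor of macrophages, had 542, 470, 717 and 526 CPM in the macrophages, against 151, 127, 210 and 247 CPM in the others. These were the 2 genes of 15 on the dying-cell uptake list that were higher in every library, and Itgb3 was lower. On the lipid list of 18 the same 2 genes were higher, while the lipid carriers Apoe and Apoc1 and the lipase inhibitor G0s2 were lower. Apoe had 792, 92.3, 559 and 76.9 CPM in the macrophages, against 1672, 2027, 1729 and 1052 CPM in the others.

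Of the matrix and adhesion list, 5 of 27 genes were higher in every library, Cspg4, Crip2, Cd9, Cd81 and Emp1, and 3 lower, Timp3, Mmp9 and Pecam1. Cd9, a tetraspanin, reached 2309, 1961, 2633 and 3174 CPM in the macrophages, against 343, 386.5, 777 and 1234 CPM in the others. Of the water and ion list 3 of 16 were higher, and 2 of these chose the cells. The third, Fxyd7, had 19.9 CPM at baseline and 15.8 CPM at resolution in the macrophages, against 3.29 and 6.37 CPM in the others.

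In the leukotriene and prostaglandin list, Alox5 and Ephx1, an epoxide hydrolase, were higher in every library and the prostaglandin enzymes Ptgs2 and Ptges lower, among 14 genes. Alox5ap, which presents the substrate to Alox5, had 1474, 1405, 1658 and 1589 CPM in the macrophages and 1503, 1529, 950 and 1413 CPM in the others. Its level was high in both. Of the lysophospholipid and purine receptors, S1pr1, the receptor for sphingosine phosphate that guides lymphocytes out of lymphoid tissue, was 6.51-, 22.2-, 7.47- and 2.41-fold higher, and it was the only 1 of 12 past 2-fold in every library.

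Scavenger genes of resident macrophages stood apart at 3 stages and not at resolution. Lyve1, a hyaluronan receptor, had 1335, 467, 297 and 462 CPM in the macrophages, against 233.5, 9.84, 17.0 and 311 CPM in the others. It was 5.72-, 47.6- and 17.5-fold higher at baseline, peak and plateau and 1.49-fold higher at resolution. Folr2 was 4.52-, 26.7-, 15.6- and 1.65-fold higher and Mrc1, the mannose receptor, 6.38-, 7.17-, 6.37- and 1.51-fold. None of the 10 scavenger genes measured was 2-fold higher in all 4 libraries and Scarb1 was lower, while their median log2 ratio was 1.14, or 0.94 on TMM totals.

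Some inflammatory, monocyte and connective tissue genes were lower in the macrophages. Il1b had 126, 358, 610 and 257 CPM in the macrophages, against 1033, 2879, 1734 and 784.5 CPM in the others. It was lower in every library, as were Il6, Lif, Csf1 and Ptgs2, which makes 5 of 13 inflammatory genes at a median log2 ratio of -1.25. Of 22 interferon-response genes 4 were lower in every library, Irf7, Ifit3b, Ifi205 and Cxcl10, and 0 higher, with a median of -1.53. On TMM totals 6 were lower. Ifi205 and Ifi204 are close relatives that can share reads. Of 17 chemokines Pf4 alone was higher and Ccl4, Ccl5, Ccl6, Cxcl10 and Cxcl12 were lower. The 8 classical monocyte markers summed to 1607, 3781, 3836 and 1939 CPM in the macrophages, against 5911, 6385, 4234 and 3376 CPM in the others, close to each other at plateau. Of these markers 6 were lower, among them Ccr2, the receptor by which monocytes enter tissue, with 181, 164, 102 and 167 CPM in the macrophages against 566, 788, 400 and 473 CPM in the others. The named lowest genes were of neutrophils (S100a8, S100a9, Camp, Ngp) and of connective tissue (Prg4, Col1a1, Col3a1, Igfbp5, Serpinf1, Pcolce). Prg4, the joint lubricant made by lining fibroblasts, had 1.99, 92.3, 13.8 and 16.5 CPM in the macrophages, against 145, 923, 1970 and 1319 CPM in the others. The part of free RNA and of adhering cells in those values was not tested.

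Other lists showed no gene past 2-fold in every library: 25 macrophage transcription factors, 22 lysosome genes, 19 cell cycle genes, 11 MHC class II pathway genes, 9 genes of the microglia type, 6 Fc gamma receptor genes and 18 genes of hypoxia and glycolysis. Their medians were 0.16, 0.10, 0.01, -0.88, 0.18, -0.37 and 0.37. On TMM totals 1 gene of the Fc gamma list and 1 of the glycolysis list were lower. Of 16 growth factor genes Tgfb2 and Nrg1 were lower, and of 12 alternative activation genes Chil3, Ear2 and Cd209a. The medians of the lists described above were 0.40 for water and ion transport, 0.49 for leukotriene and prostaglandin enzymes, 0.70 for dying-cell uptake, 0.48 for matrix and adhesion and -0.32 for chemokines. Those of lipid handling (0.20), purine and lysophospholipid receptors (0.17), growth factors (0.25) and alternative activation (0.24) were close to the 0.15 of all genes, and lipid handling and the receptors were at -0.01 and -0.05 on TMM totals. Of 18 dissociation stress genes, the heat shock genes Hspa1a and Hspa1b, near-identical copies that can split reads, were higher in every library on total counts and neither was on TMM totals. Hspa1a had 92.5, 66.3, 59.1 and 103 CPM in the macrophages, against 15.98, 21.6, 25.7 and 50.3 CPM in the others.

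The antibodies were not used to choose the cells. Of 92 antibodies 50 had at least 30 UMIs on the macrophages of every library, and of these 4 (8.0%) were at least 1.5-fold higher on the macrophages in all 4 libraries as a share of antibody UMIs and 7 (14.0%) lower. An exact two-sided sign-flip permutation test over 4 libraries cannot give a p below 0.125, so none of these differences could pass a test. The higher ones were FrB, CD45.2, MERTK and CD204, 3 of them receptors for folate, dying cells and modified lipoproteins. FrB gave 62.7, 58.6, 61.1 and 14.5 UMIs per macrophage, against 13.1, 4.51, 6.20 and 5.32 per other barcode. The macrophages were higher in every library, 8.01-, 12.8-, 6.89- and 2.40-fold as a share. MERTK, a receptor for dying cells, was faint, with 1.33, 3.22, 2.31 and 0.513 UMIs per macrophage against 0.686, 0.260, 0.371 and 0.253 per other barcode. CD204 gave 0.705, 6.38, 2.14 and 0.556 UMIs per macrophage and 0.280, 1.92, 0.442 and 0.324 per other barcode.

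The 7 lower antibodies were Ly6C, CD11a, CD102, CD90.2, CD62L, CD317 and CD61. Ly6C, which marks classical monocytes and was a sorting antigen, gave 5.09, 7.38, 6.02 and 0.876 UMIs per macrophage, against 574, 33.2, 12.5 and 5.94 per other barcode. CD11a, an integrin chain by which blood leukocytes hold to vessels, gave 2.01, 30.7, 21.3 and 4.49 UMIs per macrophage, against 179, 129, 42.8 and 28.8 per other barcode. Both gaps were widest at baseline. RNA of the CD11a gene Itgal did not follow at plateau, where it had 33.5 CPM in the macrophages and 22.8 CPM in the others.

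**Figure D3:**
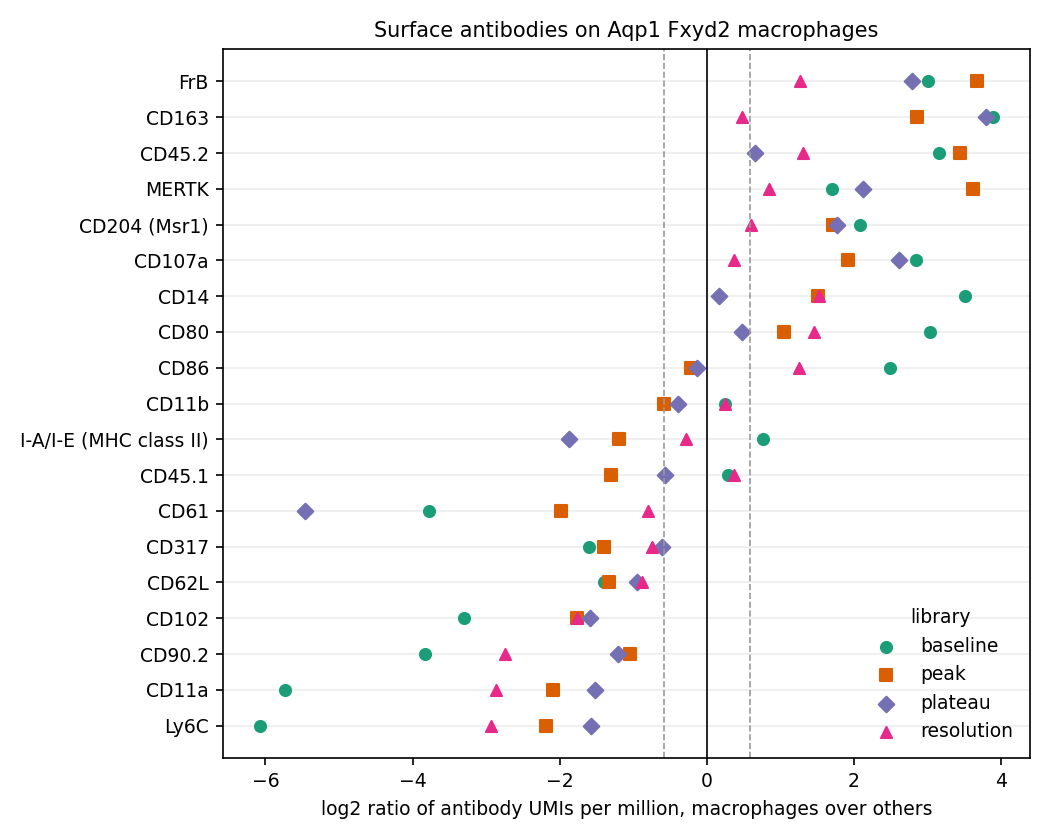
Log2 ratio of the antibody's share of all antibody UMIs, Aqp1 Fxyd2 macrophages over the other kept barcodes, for antibodies past 1.5-fold in every library and further antibodies named in the text. Each marker is 1 library and the dashed lines stand at 1.5-fold. FrB, CD45.2, MERTK and CD204 lie to the right in all 4 libraries, CD163 misses the line at resolution, and Ly6C and CD11a lie far to the left.

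CD163, a receptor for haptoglobin and haemoglobin, gave 277, 132, 179 and 34.2 UMIs per macrophage, against 31.3, 18.0, 8.98 and 21.7 per other barcode. It was 14.8-, 7.21- and 13.9-fold higher at baseline, peak and plateau and 1.39-fold at resolution, and so was not called. CD86, a costimulatory ligand, was 5.63-, 0.859-, 0.913- and 2.38-fold the share of the other barcodes. CD80, a related ligand, was 8.16-, 2.07-, 1.39- and 2.73-fold theirs. CD107a, a lysosome membrane protein, was 7.19-, 3.77-, 6.097- and 1.29-fold their share, and CD14, a receptor for bacterial lipopolysaccharide, 11.4-, 2.86-, 1.12- and 2.86-fold. The CD36 antibody gave 0.307, 0.594, 0.857 and 0.423 UMIs per macrophage, against 17.7, 1.54, 0.960 and 1.38 per other barcode. Cd36 RNA was 2.37- to 11.6-fold higher in the macrophages. The antibody was faint on the macrophages, with no background subtracted, and its values in the macrophages and the others were close at plateau. At baseline and peak it fell short of the UMI minimum set for antibodies. Whether CD36 protein and RNA differ in direction was therefore not tested.

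The sorting antigens gave CD11b at 393, 226, 284 and 215 UMIs per macrophage and 558, 333, 261 and 160 per other barcode. CD64 gave 1.77, 3.06, 1.35 and 0.446 per macrophage and 1.55, 2.71, 1.42 and 0.410 per other barcode. Antibody to MHC class II (I-A/I-E) gave means of 34.4, 18.6, 13.7 and 43.8 UMIs per macrophage with medians of 3.5, 7, 4 and 5, so a few cells carried most of it. CD177 was not in the panel.

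CD163 antibody was unevenly spread among the macrophages themselves. Cells with at least 20 CD163 UMIs were 48 of 88 at baseline (54.5%), 12 of 32 at peak (37.5%), 17 of 49 at plateau (34.7%) and 284 of 1405 at resolution (20.2%). They held between 94.9% and 99.4% of all CD163 UMIs on the macrophages. Cells with 5 or fewer numbered 31, 17, 28 and 1020, and 9, 3, 4 and 101 lay between. The limits of 5 and 20 were set after the values were seen, and give ranges of 1 score. The RNA ran the same way: Cd163 had 305, 247, 104 and 307 CPM in the CD163-high cells, against 12.3, 6.57, 7.57 and 12.4 CPM in the CD163-low cells.

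**Figure D4:**
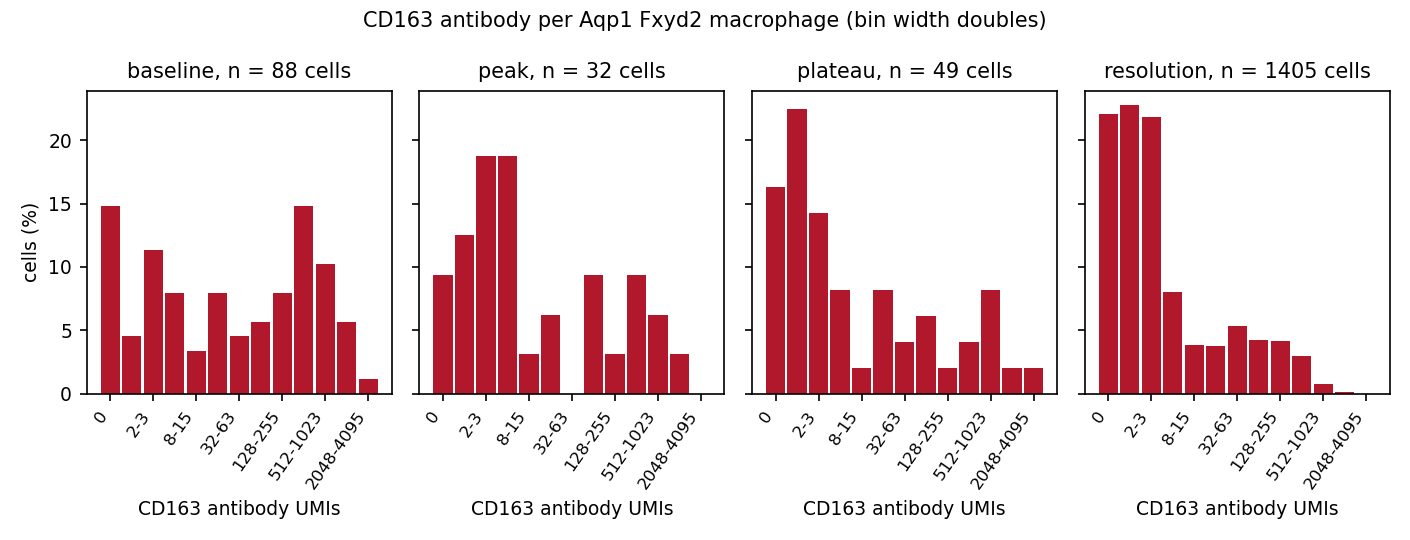
Share of Aqp1 Fxyd2 macrophages (%) by CD163 antibody UMIs per cell in bins that double in width, 1 panel per library; every second bin is labelled. Cells lie at both ends of the scale at every stage, and the median was 35 UMIs at baseline, 5 at peak, 3 at plateau and 2 at resolution.

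At resolution, where both classes were large, the CD163-high cells had 296.5 CPM of Mucl1, against 8.42 CPM in the CD163-low cells (34.9-fold, 27.0 to 46.7). Retnla stood at 1109 CPM in the CD163-high and 542 CPM in the CD163-low cells, Mgl2 at 537 and 248 CPM, H2-Aa at 1976 and 962 CPM and Lyve1 at 724 and 399.5 CPM. Folr2 differed less, at 206 and 167 CPM, and C1qa had 1383 CPM in the CD163-high and 1801 CPM in the CD163-low cells. Spp1, osteopontin, went the other way, with 169.5 CPM in the CD163-high and 684 CPM in the CD163-low cells, as did Gpr34, with 108.5 and 205 CPM. These directions did not all hold at the other stages. Mucl1 stood at 118 CPM in the CD163-high and 79.9 CPM in the CD163-low cells at baseline (1.46-fold, 0.926 to 2.42). Neither class had a Mucl1 UMI at peak or plateau. Spp1 was 41.2-fold higher in the CD163-high cells at peak, where 1 cell held most of it, Gpr34 was 2.05-fold higher in them at baseline, and H2-Aa was 0.907-fold and Cd74 0.611-fold there. Depth moved with this split: the median was 647 antibody UMIs and 7512.5 gene UMIs in the CD163-high and 358.5 and 5913 in the CD163-low cells, and its part was not tested.

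Both donor and recipient cells were among the macrophages. Among cells with at least 10 CD45 antibody UMIs, CD45.2 made up at least 75% in 49 of 82 at baseline (59.8%, 48.3 to 70.4), 16 of 27 at peak (59.3%, 38.8 to 77.6), 23 of 48 at plateau (47.9%, 33.3 to 62.8) and 241 of 791 at resolution (30.5%, 27.3 to 33.8). The other barcodes gave 15.5%, 2.88%, 6.04% and 20.1%. The macrophages stood above the others at each stage, by the least at resolution. The CD163 classes were set apart in the same way, again among cells with at least 10 CD45 UMIs. CD45.2 cells were 31 of 44 (70.5%), 7 of 11 (63.6%), 12 of 16 (75%) and 117 of 229 (51.1%) of the CD163-high cells. They were 16 of 29 (55.2%), 7 of 14 (50%), 10 of 28 (35.7%) and 108 of 484 (22.3%) of the CD163-low cells. The counts at peak were too few to tell the classes apart.

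The macrophages were also set beside Vsig4-positive cells, with at least 2 Vsig4 UMIs and under 0.4% of Acp5 and Ctsk. Vsig4 is a complement receptor of resident macrophages. These were 83, 41, 41 and 220 cells from baseline to resolution, and how near they lie to the macrophages was not measured. Of 3172 genes measured, 6 (0.189%) were 2-fold higher in the Aqp1 Fxyd2 macrophages in all 4 libraries and 23 (0.725%) lower, Vsig4 itself among them as a rule gene. Aqp1, a rule gene that every Aqp1 Fxyd2 macrophage had to show, had 954.5, 534, 666 and 923 CPM in the Aqp1 Fxyd2 macrophages and 614, 542, 481 and 1022 CPM in the Vsig4-positive cells. Alox5 had 298, 182, 157.5 and 277 CPM in the Aqp1 Fxyd2 macrophages and 232, 151, 200 and 275 CPM in the Vsig4-positive cells. Neither differed by 2-fold in any library, nor did Mamdc2, Jam2, Pmp22, Cspg4 or Trem2. Fxyd2, also a rule gene, was 2.01-, 2.41-, 1.58- and 1.05-fold higher in the Aqp1 Fxyd2 macrophages. C1qa was 2.31-, 1.78-, 1.99- and 2.61-fold lower in them. Pf4 went both ways, at 1.88, 0.399, 1.91 and 0.975 times the level of the Vsig4-positive cells. Most Vsig4-positive cells at baseline and resolution, and a minority at peak and plateau, met every other limit of the rule.

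The 6 higher genes were Cd74, Tnip3, Emb, Pgk1, Ndrg1 and 4930523C07Rik. Cd74, the invariant chain of MHC class II, had 2575, 1857, 400 and 7904 CPM in the Aqp1 Fxyd2 macrophages, against 250, 797, 164 and 578 CPM in the Vsig4-positive cells. Tnip3, an inhibitor of NF-kappa-B signalling, had 107, 124, 51.2 and 171 CPM in the Aqp1 Fxyd2 macrophages, against 3.70, 5.79, 13.1 and 8.50 CPM in the Vsig4-positive cells. Pgk1, a glycolytic enzyme, had 270, 387, 461 and 371 CPM in the Aqp1 Fxyd2 macrophages and 93.8, 182, 216 and 112 CPM in the Vsig4-positive cells. The lower genes included resident macrophage genes (Lyve1, Folr2, F13a1, Cbr2, Stab1, Selenop, Maf), Apoe, the leukotriene C4 synthase gene Ltc4s and the protease Ctsd. Lyve1 had 1335, 467, 297 and 462 CPM in the Aqp1 Fxyd2 macrophages, against 2865, 1431, 1322 and 2565 CPM in the Vsig4-positive cells. Gpr34 had 300, 83.6, 76.8 and 170 CPM in the Aqp1 Fxyd2 macrophages and 764, 284, 236 and 580 CPM in the Vsig4-positive cells. CD45.2 cells were 96.2%, 77.5%, 92.5% and 92.3% of the Vsig4-positive cells, above the shares among the Aqp1 Fxyd2 macrophages at each stage.

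Stages were compared within the macrophages by size alone. Against baseline, 178 of 5330 genes with at least 30 UMIs (3.34%) were 2-fold higher and 324 (6.08%) lower at peak, 253 of 5701 (4.44%) higher and 355 (6.23%) lower at plateau, and 498 of 10182 (4.89%) higher and 321 (3.15%) lower at resolution. Resolution against plateau gave 986 of 10115 genes (9.75%) higher and 700 (6.92%) lower. The contrasts against baseline share that library, and the medians of all genes lay between -0.06 and -0.02.

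The macrophage markers did not move together. C1qa had 2505, 2250, 2605 and 1635 CPM from baseline to resolution and Alox5 298, 182, 157.5 and 277 CPM. Neither was 2-fold apart in any of the 4 contrasts. Pf4 had 4651, 669, 2113 and 1947 CPM, which was 6.94-fold lower at peak than at baseline (6.09 to 7.96). Lyve1 had 1335, 467, 297 and 462 CPM, and was 2.89-fold lower at resolution than at baseline (2.72 to 3.07). The resolution cells were lower than the baseline cells in other resident macrophage genes too, by 2.33-fold in Folr2, 3.33-fold in F13a1 and 4.28-fold in Cbr2. Apoe had 792, 92.3, 559 and 76.9 CPM, low at peak and at resolution and 10.3-fold lower at resolution than at baseline (9.34 to 11.4). The baseline UMIs of Apoe lay in 19 cells, and the top cell held 294 of 797. Without the top cell of each library Apoe was 7.11-fold lower at resolution than at baseline. In the other barcodes Apoe stayed between 1052 and 2027 CPM.

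**Figure D5:**
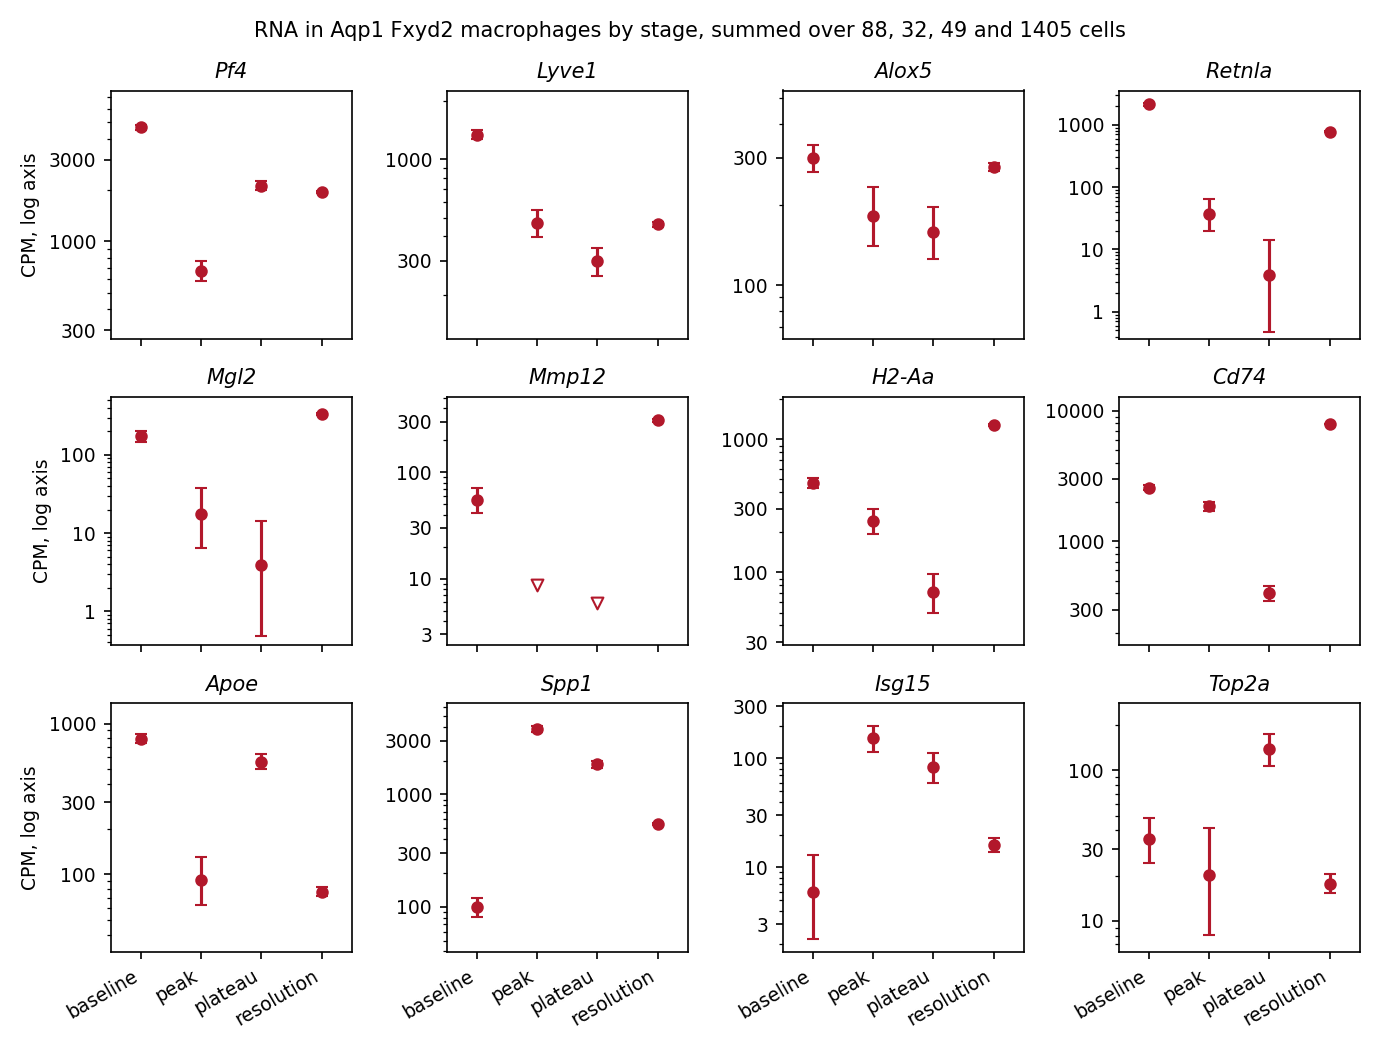
CPM (log axis, own scale per gene) of 12 genes summed over the Aqp1 Fxyd2 macrophages of each library, with exact 95% Poisson intervals. Open triangles mark 0 UMIs, drawn at the floor of 3 counts. Retnla, Mgl2, Mmp12, H2-Aa and Cd74 were lowest at plateau or at 0 there, Spp1 and Isg15 were highest at peak, and Top2a was highest at plateau.

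Genes of antigen presentation were lowest at plateau and highest at resolution. H2-Aa, an MHC class II chain, had 470, 242, 70.9 and 1281 CPM from baseline to resolution, found in 32, 11, 9 and 627 cells. Cd74 had 2575, 1857, 400 and 7904 CPM and H2-Eb1 268.5, 141, 25.6 and 784 CPM. At plateau H2-Aa was 6.55-fold (4.72 to 9.59) and H2-Eb1 10.1-fold (6.03 to 19.95) lower than at baseline. Of 10 pathway genes measured at plateau against baseline, 6 were 2-fold lower, the 3 chains with Cd74, H2-DMa and H2-DMb1, and 1 was higher, the cathepsin gene Ctss. Against plateau, resolution had 7 of 12 genes higher, these 6 and the class II regulator Ciita, and Cd80 lower, at a median log2 ratio of 2.80 or, with genes at 0 set to 3 counts, 1.61. Against baseline, resolution had 5 of 12 higher, among them Cd74 at 3.07-fold (2.95 to 3.19). At peak 0 of 9 passed 2-fold, and the median was -0.48. A few cells held much of this RNA at the small stages, since 1 cell had 36.8% of the H2-Aa UMIs at baseline and 52.8% at plateau, against 1.85% at resolution. The I-A/I-E antibody means of 34.4, 18.6, 13.7 and 43.8 UMIs per cell ran in the same order as H2-Aa RNA, and the medians of 3.5, 7, 4 and 5 did not.

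Of the alternative activation list 2 of 8 genes were higher and 3 lower at peak than at baseline, and 2 of 12 higher and 4 lower at resolution than at baseline, with a median of -0.22. Retnla, a secreted product of macrophages under interleukin signals of type 2 immunity, had 2126, 37.5, 3.94 and 776 CPM in 21, 3, 1 and 235 cells. It was 54.6-fold lower at peak than at baseline (33.1 to 107), and at plateau only 2 UMIs were counted. A single baseline cell held 50.7% of the baseline UMIs. Resolution was 2.74-fold lower than baseline, and 1.46-fold with the top cell of each library left out. Mgl2, a lectin of such macrophages, had 172, 17.3, 3.94 and 332 CPM, spread over 403 cells at resolution. At plateau against baseline 5 of 8 genes of this list were lower, Retnla, Mgl2, Mrc1, Ccl24 and Cd163, and 2 higher, Il4ra and Tgm2, with a median of -1.70. Mmp12, the macrophage elastase, had 54.7, 0, 0 and 309 CPM, where 3 UMIs would be 8.65 CPM at peak and 5.91 CPM at plateau, which made it at least 52.3-fold higher at resolution than at plateau. The ribonuclease gene Rnase2a and the chemokine gene Ccl17 were likewise at 0 at peak and plateau and at least 26.0-fold and 19.1-fold higher at resolution than at plateau. Of the baseline UMIs of Mmp12 and Rnase2a, 1 cell held 87.3% and 82.4%.

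Several interferon genes, and part of the inflammatory list, were higher at peak or plateau. Isg15, an interferon-induced modifier protein, had 5.97, 153, 82.7 and 16.2 CPM in 6, 15, 15 and 107 cells, 23.88-fold higher at peak than at baseline (11.0 to 73.0). All 4 interferon genes measured at plateau against baseline were 2-fold higher, among them Isg15, Ifi204 and Bst2, and 10 of 16 were lower at resolution than at plateau, with Cxcl10 higher. Il1rn, the interleukin-1 receptor antagonist, had 2.98, 49.0, 124 and 4.68 CPM, and Il1b 126, 358, 610 and 257 CPM, but 1 cell held 61.9% and 62.3% of their plateau UMIs. At plateau against baseline 5 of 9 inflammatory genes were higher, Il1a, Il1b, Il1rn, Osm and Nlrp3, and Tnf was lower. At peak 2 of 6 were higher and 1 lower. At resolution 3 of 11 were higher and 0 lower than at baseline, at a median of 0.79, and 3 were higher and 4 lower than at plateau. Tnf had 168, 37.5, 82.7 and 190 CPM, highest at the ends of the course, and was found in 40, 9, 13 and 625 cells. Cxcl1, a neutrophil chemokine, had 154, 8.65, 80.7 and 151 CPM and was 15.3-fold lower at peak than at baseline (5.98 to 87.3), on 3 peak UMIs. Fcgr1, which encodes the sorting antigen CD64, had 16.9, 89.4, 59.1 and 10.2 CPM.

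A minority of the matrix genes were higher at peak and plateau, and the medians of the list were 0.40 and 0.19. Spp1 had 99.4, 3825, 1851 and 548 CPM, 38.3-fold higher at peak than at baseline (31.4 to 47.6) and 18.5-fold at plateau (15.1 to 23.11). A single peak cell held 1153 of 1326 Spp1 UMIs. Without the top cell of each library the ratio was 7.98 at peak and 22.8 at plateau. Fn1, fibronectin, had 1319, 3072, 3346 and 1663 CPM, 2.33-fold higher at peak and 2.54-fold at plateau. Mmp14, a membrane collagenase, had 1.99, 92.3, 104 and 14.7 CPM in 2, 12, 15 and 117 cells. Timp1, an inhibitor of such proteases, had 10.9, 190.4, 78.8 and 18.4 CPM. Of 21 matrix genes measured, 6 were higher at peak, these 4 with Mmp19 and Thbs1, and Mmp12 was lower. At plateau 7 were higher, the same 6 with Itga6, and 4 lower, Mmp12, Sparc, Tmem176a and Tmem176b. Thbs1, thrombospondin, had 0.994, 366, 411.5 and 5.26 CPM, but 174 of 209 plateau UMIs lay in 1 cell. Sparc, a collagen-binding protein, had 332, 464, 29.5 and 86.8 CPM, 10.9-fold lower at plateau than at baseline (6.72 to 20.3). Plac8 and Clec4n, genes of inflammatory myeloid cells, had 5.97, 309, 226.5 and 27.2 CPM and 17.9, 118, 276 and 29.8 CPM. The plateau UMIs of Plac8 lay in 4 cells.

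Cell cycle genes were highest at plateau in few cells. Top2a, a topoisomerase of dividing cells, had 34.8, 20.2, 138 and 17.7 CPM in 2, 2, 3 and 49 cells. Mki67 had 39.8, 51.9, 134 and 30.1 CPM in 9, 4, 7 and 107 cells. Of 12 cell cycle genes 8 were 2-fold higher at plateau than at baseline, at a median of 1.58, and 11 of 19 were lower at resolution than at plateau. After thinning to 2000 UMIs, Mki67 was found in 3.41%, 6.25%, 4.17% and 2.77% of the macrophages, against 7.33%, 1.15%, 2.16% and 3.08% of the others. Without thinning it was found in 10.2%, 12.5%, 14.3% and 7.62% of the macrophages and 13.4%, 3.82%, 5.25% and 5.74% of the others. Thinning left out 0, 0, 1 and 32 macrophages and 83, 444, 421 and 540 others as too shallow.

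Growth factor genes did not move one way. At peak 2 of 7 were higher than at baseline, Pdgfa and Vegfa, and 2 lower, Areg and Ndnf, and at plateau 2 of 8 were higher, the same 2, and Ndnf lower. Vegfa, which drives vessel growth, had 18.9, 63.5, 61.0 and 31.4 CPM. Areg, amphiregulin, had 102, 2.88, 51.2 and 307 CPM, and Ndnf, a secreted neurotrophic factor, 110.4, 5.77, 1.97 and 76.5 CPM. Ndnf was 15.4-fold lower at peak than at baseline and 37.5-fold lower at plateau, on 2 and 1 UMIs. The kinase gene Pim1 had 183, 159, 386 and 594 CPM and the receptor gene Notch2 47.7, 37.5, 96.5 and 155 CPM. Both were over 3-fold higher at resolution than at baseline, Pim1 3.24-fold and Notch2 3.21-fold.

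The macrophages were also described by bins of Fxyd2, a rule gene. With at least 5 UMIs asked of a member, the low bin holds deep cells: median depths at resolution were 10083.5, 7010 and 6053 UMIs from the low to the high bin. The part of depth in these values was not tested. At resolution 76, 162 and 1167 of them had under 10, 10 to 20 and at least 20 Fxyd2 UMIs per 10000. H2-Aa was at 2656, 2308 and 967 CPM and Apoe at 247, 129 and 49.8 CPM in these bins, lower where Fxyd2 was higher. Pf4 ran the other way at 1177, 1556 and 2093 CPM, as did Jam2 at 22.0, 34.6 and 67.6 CPM and Aqp1, a rule gene, at 436, 568 and 1033 CPM. After thinning to 2000 UMIs, Lyve1 was found in 61.4%, 34.4%, 22.9% and 26.5% of the macrophages from baseline to resolution, against 10.2%, 0.750%, 1.40% and 12.2% of the others. Without thinning these shares were 72.7%, 50%, 26.5% and 35.8% of the macrophages and 11.4%, 1.07%, 2.48% and 13.3% of the others. Retnla was found in 15.9% of the thinned macrophages at baseline and 10.8% at resolution, against 1.78% and 8.70% of the others, and without thinning in 23.86% and 16.7% of the macrophages, against 3.56% and 11.2% of the others. Most macrophages thus had no Retnla UMI at either depth.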

How the data were processed

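The deposited matrices hold raw UMI counts of 32285 genes and 92 antibodies per barcode. Per the submitters' processing notes Cell Ranger 6.1.2, Seurat 4.4.0 and the mm10 build were used, with no step named for each. Counts were summed over the macrophages and over the other kept barcodes of each library (Python 3.11.15, numpy 2.4.6, scipy 1.17.1, pandas 2.3.3), and edgeR 4.0.16 in R 4.3.3 gave TMM totals alone. Ratios carry 0.5 added counts, and their 95% intervals come from the exact conditional binomial. A gene needed at least 30 UMIs over the 2 sums compared, and an antibody 30 UMIs on the macrophages, in each library used. Ratios and intervals were tested on counts simulated from the sums and not from single cells. That test therefore does not cover genes whose UMIs lay in few cells. Thinning drew 2000 gene UMIs per cell and left out shallower cells. The panel holds no isotype antibody, so no antibody background was subtracted.

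The members, lists and markers were chosen with earlier results of these data known. Named genes were the rule genes and given markers, the 12 highest and 12 lowest called genes against the other barcodes at 50 CPM or more, the 8 highest and 8 lowest of each stage contrast at 100 CPM or more, and up to 6 genes of highest level with the one of largest change in each list. Mitochondrial, ribosomal, haemoglobin, sex-linked, immunoglobulin, T cell receptor and unnamed genes were left out of the rankings. Named antibodies were those called, both CD45 variants and the sorting antigens. Other genes and antibodies, those of the CD163 and Vsig4 comparisons included, were named after their values were seen.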

Additional observations from a re-analysis of the deposited data

Results flagged for a closer look

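In 5 cases a named gene was at least 2-fold apart between 2 stages in the Aqp1 Fxyd2 macrophages and at least 2-fold apart the opposite way in the other kept barcodes of the same 2 libraries. With 1 library per stage the difference was not tested in any of them. Cxcl1 had 8.65 CPM at peak and 154 CPM at baseline in the macrophages (log2 ratio -3.94), and 174 CPM at peak and 27.3 CPM at baseline in the others (2.67), a gap of -6.61. Plac8 had 226.5 CPM at plateau and 5.97 CPM at baseline in the macrophages (5.14), and 589 and 2271 CPM in the others (-1.95), a gap of 7.08. Its 115 plateau UMIs lay in 4 macrophages, 63 of them in 1 cell. Without the top cell of each library the log2 ratio of Plac8 in the macrophages was 4.63. Sparc had 29.5 CPM at plateau and 332 CPM at baseline in the macrophages (-3.45), and 986 and 489 CPM in the others (1.01), a gap of -4.46. Ccl24, an eosinophil chemokine, had 41.8 CPM at resolution and 155 CPM at baseline in the macrophages (-1.90), and 50.8 and 20.4 CPM in the others (1.32), a gap of -3.21. Retnla had 776 CPM at resolution and 2126 CPM at baseline in the macrophages (-1.45), and 557 and 71.5 CPM in the others (2.96), a gap of -4.41. Without the top cell of each library the macrophages' ratio was -0.55, under 2-fold.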

How the results depend on the processing

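Counts of genes moved most with the count minimum. With no minimum, 492 genes were higher than in the other barcodes in every library instead of 121; CPM averaged per cell gave 182, TMM totals 80, and other barcodes limited to 1 Fxyd2 UMI, an alternative chosen after seeing the data, 255. Asking for an interval clear of 1, also chosen after seeing the data, left 156 of 292 lower genes. Without a minimum the stage contrasts gave 1847 higher and 1466 lower genes at peak, 1527 and 1665 at plateau and 969 and 3564 at resolution, all against baseline, and 4501 lower at resolution against plateau. Without the top cell for each gene, added after seeing the data, 508 were lower at peak, 936 higher and 150 lower at resolution against baseline, and 1891 and 364 against plateau. With intervals clear of 1 the last 2 contrasts gave 259 and 207, and 394 and 413. Higher antibodies were 7 instead of 4 by UMIs per cell, and 7 against others with at most 1 Fxyd2 UMI; lower ones were 4 instead of 7 with at least 10 Fxyd2 UMIs. The share at baseline was 13.7% without the Vsig4 limit. At peak it was 0.943% without the Aqp1 limit, 0.808% without the Vsig4 limit and 0.346% thinned. At plateau it was 1.24% with at least 10 Fxyd2 UMIs and 2.93% without the Aqp1 limit. At resolution it was 32.7% and 26.4% with at least 3 and 10 Fxyd2 UMIs, 32.9% with 5 per 10000, 34.96% without the Aqp1 limit, 34.0% without the Vsig4 limit, 27.4% with Acp5 and Ctsk under 0.1%, 34.1% with at least 1000 genes and 26.9% thinned. Both thinned shares rest on the changed Fxyd2 and Vsig4 limits described with the shares. Ccl8 at peak against baseline turned to a log2 ratio of -1.43 without barcodes holding both CD45 antibodies, since 125 of its 127 peak UMIs lay in 1 cell. Of the values of named genes and antibodies, 621 stayed within 0.5 of the log2 ratio reported and 113 moved further; the cause was not tested. No paired analysis was possible because each stage has 1 library. The planned subtraction of isotype antibodies was not run, as the panel has none. Peak and plateau rest on 32 and 49 macrophages, which limits every value there.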
